A study of Mus musculus with 6 samples.

Results

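The genes described here encode the nuclear subunits of the 5 complexes of oxidative phosphorylation, together with a few close relatives that carry the same family names. They were chosen by symbol alone: the Nduf families a, b, c, s and v, all Uqcr genes, the Cox families numbered from Cox4 to Cox8, all Atp5 genes and the succinate dehydrogenase genes Sdha to Sdhd. Of the 18193 genes measured, 81 met this rule, with 35 assigned to complex I, 4 to complex II, 8 to complex III, 17 to complex IV and 17 to complex V. Where several probe sets named a gene, the brightest by mean was used, and values are log2 expression levels, so that a difference of 1 is a doubling.

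The study overexpressed MN1, a transcriptional cofactor that causes myeloid leukaemia when overexpressed in mouse marrow, or a construct named MN1VP16, which the labels describe no further. Per the labels, C57BL/6J mice received 150 mg/kg 5-fluorouracil for 4 days, and their marrow was stimulated for 48 hours with IL6, IL3 and SCF in serum-containing medium. The cells were infected by culture with irradiated E86 producer cells and protamine sulfate, and were put into lethally irradiated mice of the same strain. GFP-positive cells carrying pSF91-MN1-IRES-GFP (group MN1, n = 2 arrays) or pSF91-MN1VP16-IRES-GFP (group MN1VP16, n = 2) were sorted 4 weeks later. The third group, Gr1Mac (n = 2), consisted of marrow cells positive for the granulocyte marker Gr1 and for CD11b, found on granulocytes and monocytes. The protocol text is the same for all samples, and it does not say whether the Gr1Mac cells carried a vector or came from transplanted mice. Gr1Mac is therefore a comparison with sorted myeloid cells, not with the same cells without MN1. The labels do not say how many mice stand behind an array.

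Some features of the arrays bear on every comparison. Itgam, which encodes CD11b, read 10.95 and 10.92 in Gr1Mac, 9.44 and 8.88 in MN1VP16, and 7.67 and 6.95 in MN1. Mn1 itself read between 3.63 and 4.92 on all arrays, near the bottom of the scale, so its probe set does not check the vector. Xist was high in both MN1 arrays and in Gr1Mac replicate 1, and Y-linked genes were high in both MN1VP16 arrays and in Gr1Mac replicate 2. The Bacillus control features averaged 10.03 to 10.25 in both MN1 arrays and MN1VP16 replicate 1, against 8.90 to 9.27 in MN1VP16 replicate 2 and both Gr1Mac arrays. The groups also differed in the markers they held. The median level of 12 erythroid markers was 11.08 and 11.89 on the MN1 arrays, 9.20 and 8.0 on the MN1VP16 arrays, and 6.39 and 6.62 on the Gr1Mac arrays. That of 12 stem and progenitor markers was 10.50 and 10.88, 9.17 and 8.48, and 5.68 and 5.60, and that of 13 mature neutrophil markers was 12.95 and 11.68, 13.69 and 12.67, and 14.31 and 14.40, in the same order. In bulk samples such as these, fewer cells of a type and less RNA per cell cannot be told apart.

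Oxidative phosphorylation is the last stage of respiration in the inner mitochondrial membrane. Complexes I and II take electrons from NADH and succinate, complex III passes them to cytochrome c, complex IV reduces oxygen, and complex V, the ATP synthase, uses the resulting proton gradient to make ATP. Most subunits are encoded in the nucleus, and their promoters are known for binding sites of NRF1, GABP (an ETS family factor) and YY1. Mature neutrophils are known to rely mainly on glycolysis, whereas erythroid precursors and proliferating progenitors have more mitochondria.

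The promoters of the members were read first, because shared promoter letters are the sequence feature by which this gene family is best known. RefSeq promoter windows (GRCm38.p6, 250 bases before to 50 after the start of a gene) were found for 66 of the 81 members, giving 71 windows, and were searched on both strands. The NRF1 letters, GCGCA then any base then GCGC, were in 16 of 71 member windows (22.5%), against 4.60% of all 32851 windows. The ETS letters CCGGAAG were in 17 (23.9%, against 8.86%) and the YY1 letters AAGATGGC in 9 (12.7%, against 2.75%). At least 1 of these 3 motifs was in 37 windows (52.1%), against 14.7% of all windows. No member had an overlapping ETS and YY1 match, and 1 NRF1 site can match on both strands at the same place. By comparison, the E-box CACGTG, the letters read by Myc with Max, was in 9.86% of member windows and 7.15% of all windows, the CCAAT box in 40.8% and 37.4%, and the SP or KLF letters GGGCGG in 40.8% and 35.7%. The ERR letters TCAAGGTCA were in 2 member windows (2.82%, against 0.423%). A match is a description of the letters and not evidence that a factor binds there.

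Members called higher in MN1 than in Gr1Mac had 17 windows, and the other members, among them Ndufv3, which was called lower, had 54. NRF1 letters were in 4 of the 17 (23.5%) and 12 of the 54 (22.2%), ETS letters in 3 (17.6%) and 14 (25.9%), YY1 letters in 1 (5.88%) and 8 (14.8%), and the E-box in 3 (17.6%) and 4 (7.41%). These are counts of windows and not of separate sites, because windows of the same gene can overlap. The same NRF1 site of Ndufa5, called higher, was counted in both of its windows. The same E-box of Ndufa7, not called, was also counted in both of its windows. These few windows were not tested for a difference. The 6 stretches printed here, each the 110 bases before the start on the minus strand, written 5′ to 3′ with NRF1 and ETS matches in capitals, are from both kinds of member. Sdha, Ndufa5, Ndufs3 and Uqcr11 were called higher in MN1 than in Gr1Mac, while Atp5g2 and Sdhd were not. Sdha (chr13:74350241-74350350) holds 3 NRF1 matches and Ndufa5 (chr6:24527691-24527800) holds 1. Ndufs3 (chr2:90904722-90904831) and Uqcr11 (chr10:80406822-80406931) hold an ETS match. Atp5g2 (chr15:102671048-102671157) holds an NRF1 match read on both strands, and Sdhd (chr9:50603850-50603959) holds an NRF1 match and an ETS match on the opposite strand.
Sdha: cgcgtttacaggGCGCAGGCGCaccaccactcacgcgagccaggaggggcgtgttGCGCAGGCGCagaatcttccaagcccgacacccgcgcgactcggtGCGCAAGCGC
Ndufa5: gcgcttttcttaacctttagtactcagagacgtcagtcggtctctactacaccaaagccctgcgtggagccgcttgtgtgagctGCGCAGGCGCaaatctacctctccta
Ndufs3: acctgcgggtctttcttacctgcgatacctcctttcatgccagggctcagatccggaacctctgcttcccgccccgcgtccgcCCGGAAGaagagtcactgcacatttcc
Uqcr11: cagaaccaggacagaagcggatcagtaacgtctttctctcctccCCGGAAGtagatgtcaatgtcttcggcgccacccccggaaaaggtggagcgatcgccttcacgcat
Atp5g2: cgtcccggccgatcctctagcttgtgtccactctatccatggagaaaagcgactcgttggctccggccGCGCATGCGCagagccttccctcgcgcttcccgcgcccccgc
Sdhd: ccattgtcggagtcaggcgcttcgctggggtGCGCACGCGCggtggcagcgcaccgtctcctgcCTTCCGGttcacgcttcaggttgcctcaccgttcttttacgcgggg

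Most members were bright in every group. A group mean above 5.84, the highest reading of Xist on the arrays where Y-linked genes were high, was used as a guide to background, and 76 of 81 members passed it. The 5 at or under it were Cox4i2, Cox7a1, Cox7b2, Cox8b and Ndufb4. Cox4i2, Cox7a1, Cox7b2 and Cox8b are tissue isoforms of complex IV, known from lung, muscle and testis. Ndufb4 is a general complex I subunit, and its only probe set with a single gene name read 3.82 to 4.42, so its level was not measured usefully here. The median over the 81 members was 11.34 and 11.41 on the MN1 arrays, 11.17 and 10.94 on the MN1VP16 arrays, and 10.97 and 10.47 on the Gr1Mac arrays. The MN1 arrays were thus highest, and the 2 Gr1Mac arrays were further apart than those of the other groups. Gr1Mac replicate 1 was above replicate 2 in 66 of 81 members (81.5%), with a median gap of 0.39, against 0.03 over all genes. It was above replicate 2 in 53.6% of all genes, and in 68.6% of the genes brighter than the median gene.

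**Figure D1:**
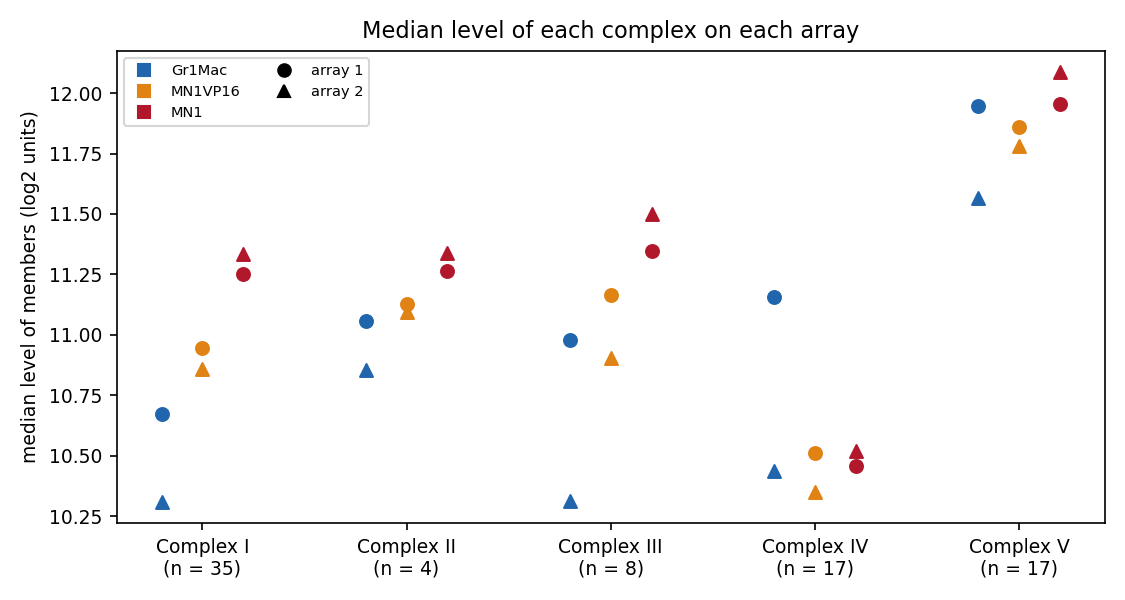
Median log2 expression level of the measured subunits of each complex on each of the 6 arrays, with circles for array 1, triangles for array 2 and a colour for each group. The MN1 arrays were above both Gr1Mac arrays for complexes I, II and III, and narrowly for V (11.96 and 12.09 against 11.95 and 11.56). For complex IV Gr1Mac replicate 1 stood highest at 11.15, against 10.46 and 10.52 in MN1, but that median was set by 1 member, Cox8a. Of the 17 complex IV members, 13 had a positive MN1 minus Gr1Mac difference, and the median of the differences was 0.14.

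The first comparison asked how the subunits differed between marrow cells overexpressing MN1 and sorted myeloid cells. Subunits of every complex were higher in MN1, led by the c-ring gene Atp5g1 of the ATP synthase, at 3.91-fold, and by the complex I genes Ndufa12 and Ndufs3, at 3.28-fold and 3.08-fold. In limma's test, with p-values adjusted over all genes and called under 0.05, 22 of 81 members (27.2%) were higher and 1, Ndufv3, was lower. Of all genes, 17.3% were called higher and 12.0% lower. Among the 9096 genes brighter than the median gene, 27.7% were called higher and 19.5% lower, with a median difference of 0.14. Set against that background, the count of higher members was near that of other bright genes, while members called lower were few. The median member difference was 0.37, against -0.06 over all genes, and 65 of 81 differences were above 0. It was 0.17 with the arrays centred on their brighter genes, where the median over all genes was -0.26, and 0.16 without probe sets that can read several transcripts. Both MN1 arrays were above both Gr1Mac arrays for 49 members (60.5%; background 30.9%, and 45.1% among the brighter genes) and below for 8 (9.88%; background 35.8%, and 34.2%). With 2 arrays against 2, an exact two-sided permutation test of a single value cannot go below 0.333, so calls rest on the spread pooled over genes and groups.

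**Figure D2:**
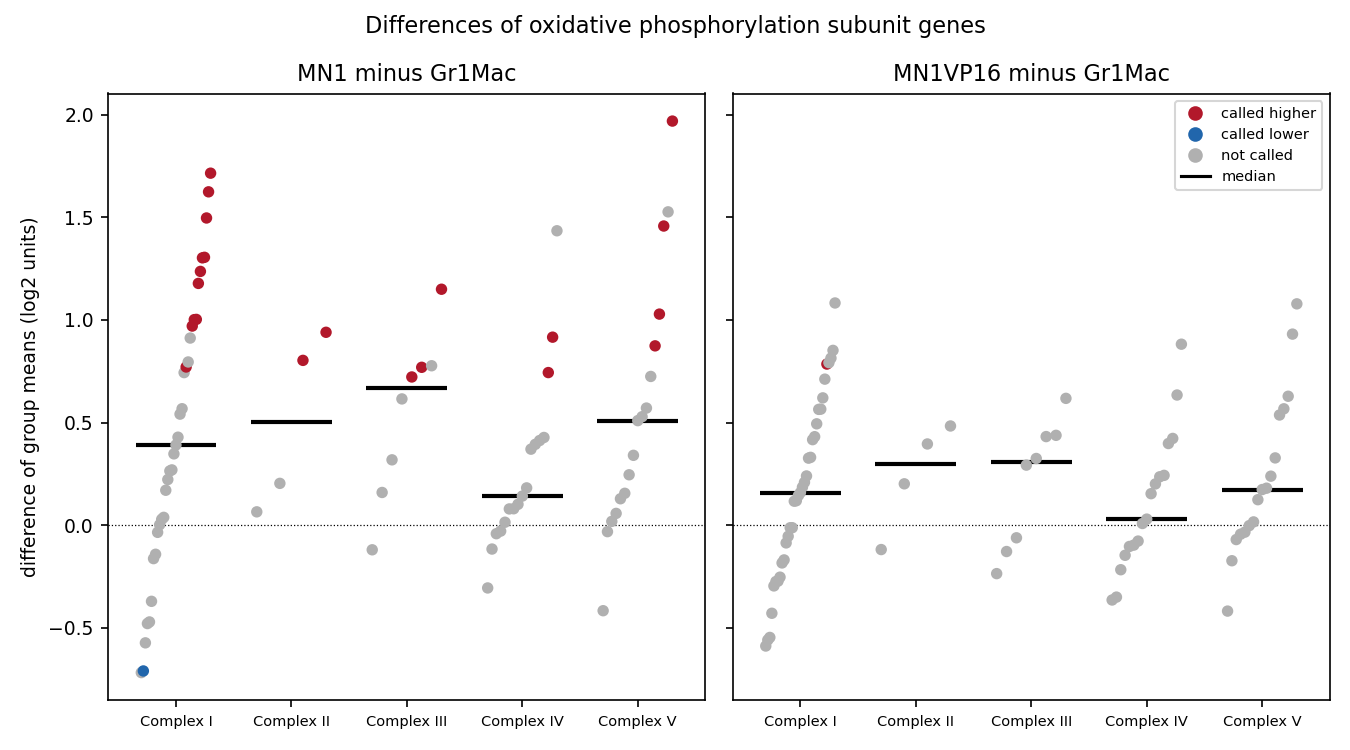
Fitted difference of group means in log2 units (y axis) for each member, placed by complex, in MN1 minus Gr1Mac (left) and MN1VP16 minus Gr1Mac (right). Red and blue points were called higher or lower by limma at an adjusted p under 0.05, grey points were not called, and black lines are medians; on the left the differences ran from -0.72 to 1.97 with the smallest median, 0.14, in complex IV, and on the right 1 point, Ndufc2, is red.

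Several conditions limit that count. With either MN1 array left out, the share of members called higher fell to near that of all genes in the same fit. The median member difference was 0.40 without MN1 replicate 1 and 0.31 without MN1 replicate 2, against -0.06 and -0.05 over all genes. Complex I held 11 of the 22 called with all arrays, and 35 of the 81 members. When the control feature split entered the fit as a block, 0 of the 22 were called, while 5.02% of all genes were called higher. The median difference of the 22 was 1.12, against 1.02 without the block, and the median SE rose from 0.20 to 0.37. The median over all 81 members was 0.31 with that block. In that fit the limma adjusted p of the 22 ran from 0.0687 to 0.423. The 22 were picked by calls on these same arrays, so their median in that fit is not separate evidence. MN1 lies wholly on the high side of that split and Gr1Mac on the low side, so the block compares them only through the MN1VP16 arrays. Within the Xist-high arrays alone, where Gr1Mac has 1 array, MN1 minus Gr1Mac was positive for 56 of 81 members (69.1%), against 48.5% of all genes and 53.1% of the brighter genes, with a member median of 0.28. When each array was centred on its median over the brighter genes, which shifted the arrays by -0.26 to 0.11, the split was 15 higher and 4 lower. Of all 18193 genes, 2602 were then higher and 2868 lower. Among the markers given at the outset, the erythroid and stem cell medians were higher in MN1 than in Gr1Mac and the neutrophil median was lower, and their part in the result was not tested.

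As background for each complex, 27.7% of the brighter genes were called higher and 19.5% lower in MN1 than in Gr1Mac, and 17.3% and 12.0% of all genes. Complex I, the NADH dehydrogenase, had 11 of 35 members higher (31.4%, near the brighter genes) and 1 lower (2.86%), with a median difference of 0.39. Its core subunits carry the flavin and the iron-sulphur clusters that pass electrons from NADH to ubiquinone, and all 6 of those measured had a positive difference, with a median of 0.84. Ndufs3, a core subunit of the peripheral arm, read 11.48 and 11.70 on the MN1 arrays, 11.24 and 10.86 on the MN1VP16 arrays, and 10.26 and 9.68 on the Gr1Mac arrays. The arrays of the 3 groups did not overlap, and MN1 was higher than Gr1Mac by 1.62 ± 0.25 (SE; limma adjusted p = 0.0062). Ndufv1, which binds NADH and the flavin, read 12.00 and 11.97, 11.28 and 11.34, and 10.97 and 10.52 in the same order. MN1 was again above MN1VP16 and MN1VP16 above Gr1Mac, and the difference between MN1 and Gr1Mac was 1.24 ± 0.19 (limma adjusted p = 0.00627). Ndufv2, the partner of Ndufv1 in the NADH module, was higher by 0.77 ± 0.22 (limma adjusted p = 0.0427). Its other probe sets gave 1.34 and 0.63 (limma adjusted p = 0.00285 and 0.0589 over probe sets). The other core members were not called: Ndufs7 differed by 0.91, Ndufs1 by 0.57 and Ndufs8 by 0.17, with limma adjusted p of 0.0592, 0.0694 and 0.722.

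The accessory subunits of complex I surround the core and are needed for its assembly and stability. Of 27 measured, 7 were higher (25.9%, near the 27.7% of the brighter genes) and 1 was lower (3.70%), and the median difference was 0.26. Ndufa12 read 12.05 and 12.32 on the MN1 arrays, 11.24 and 11.40 on the MN1VP16 arrays, and 10.80 and 10.14 on the Gr1Mac arrays. It was higher in MN1 than in Gr1Mac by 1.71 ± 0.26 (limma adjusted p = 0.00527), with no overlap among the 3 groups. Its other bright probe sets gave 1.66 and 1.58, whereas a dim one, with a mean of 5.31, gave -0.66. Ndufa5 read 10.54 and 10.66, 9.92 and 9.92, and 9.32 and 8.89, a difference of 1.50 ± 0.19 between MN1 and Gr1Mac (limma adjusted p = 0.00362). Ndufc2, a subunit of the membrane arm, read 12.69 and 12.82, 12.28 and 12.20, and 11.47 and 11.45. Its arrays lay close together within each group and apart between groups, and the difference was 1.30 ± 0.15 (limma adjusted p = 0.00274). Ndufa9, Ndufa10, Ndufb6 and Ndufb2 were higher by 1.30, 1.18, 1.00 and 1.00, the last at a limma adjusted p of 0.0475. A second bright probe set gave 0.45 for Ndufb6 and 0.86 for Ndufb2, without a call (limma adjusted p = 0.0909 and 0.0781 over probe sets).

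Ndufv3, a small accessory subunit of the NADH module, was the only member called lower. It read 11.80 and 11.71 on the MN1 arrays, 11.95 and 11.89 on the MN1VP16 arrays, and 12.71 and 12.23 on the Gr1Mac arrays. Both Gr1Mac arrays were above the rest, and MN1 was below Gr1Mac by 0.71 on the log2 scale (fitted difference -0.71 ± 0.20, limma adjusted p = 0.0443). The call was lost with any 1 array left out except Gr1Mac replicate 2, with limma adjusted p from 0.0688 to 0.207, and was 0.0222 without that array. Of the 27 accessory members, 9 had a negative difference. Besides Ndufv3 these were Ndufb1 (-0.72), Ndufb7 (-0.57), Ndufa13 (-0.48), Ndufs5 (-0.47), Ndufa3 (-0.37), Ndufa1 (-0.16), Ndufb3 (-0.14) and Ndufs4 (-0.03), none of them called. The accessory subunits thus lay on both sides of 0. Ndufb1 read 7.39 and 7.14 on the MN1 arrays, 8.42 and 8.03 on the MN1VP16 arrays, and 8.27 and 7.70 on the Gr1Mac arrays, with MN1 below all other arrays (limma adjusted p = 0.0857 against Gr1Mac).

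A pair of genes named for complex I was counted apart from its core and accessory subunits, but within its 35 members and 11 calls. Ndufa4, now assigned to complex IV but not among its 17 members here, was higher in MN1 than in Gr1Mac by 0.97 ± 0.23 (limma adjusted p = 0.0252). Ndufa4l2, its relative known to be induced by low oxygen, read between 5.47 and 6.15 on all 6 arrays, close to the background guide.

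**Figure D3:**
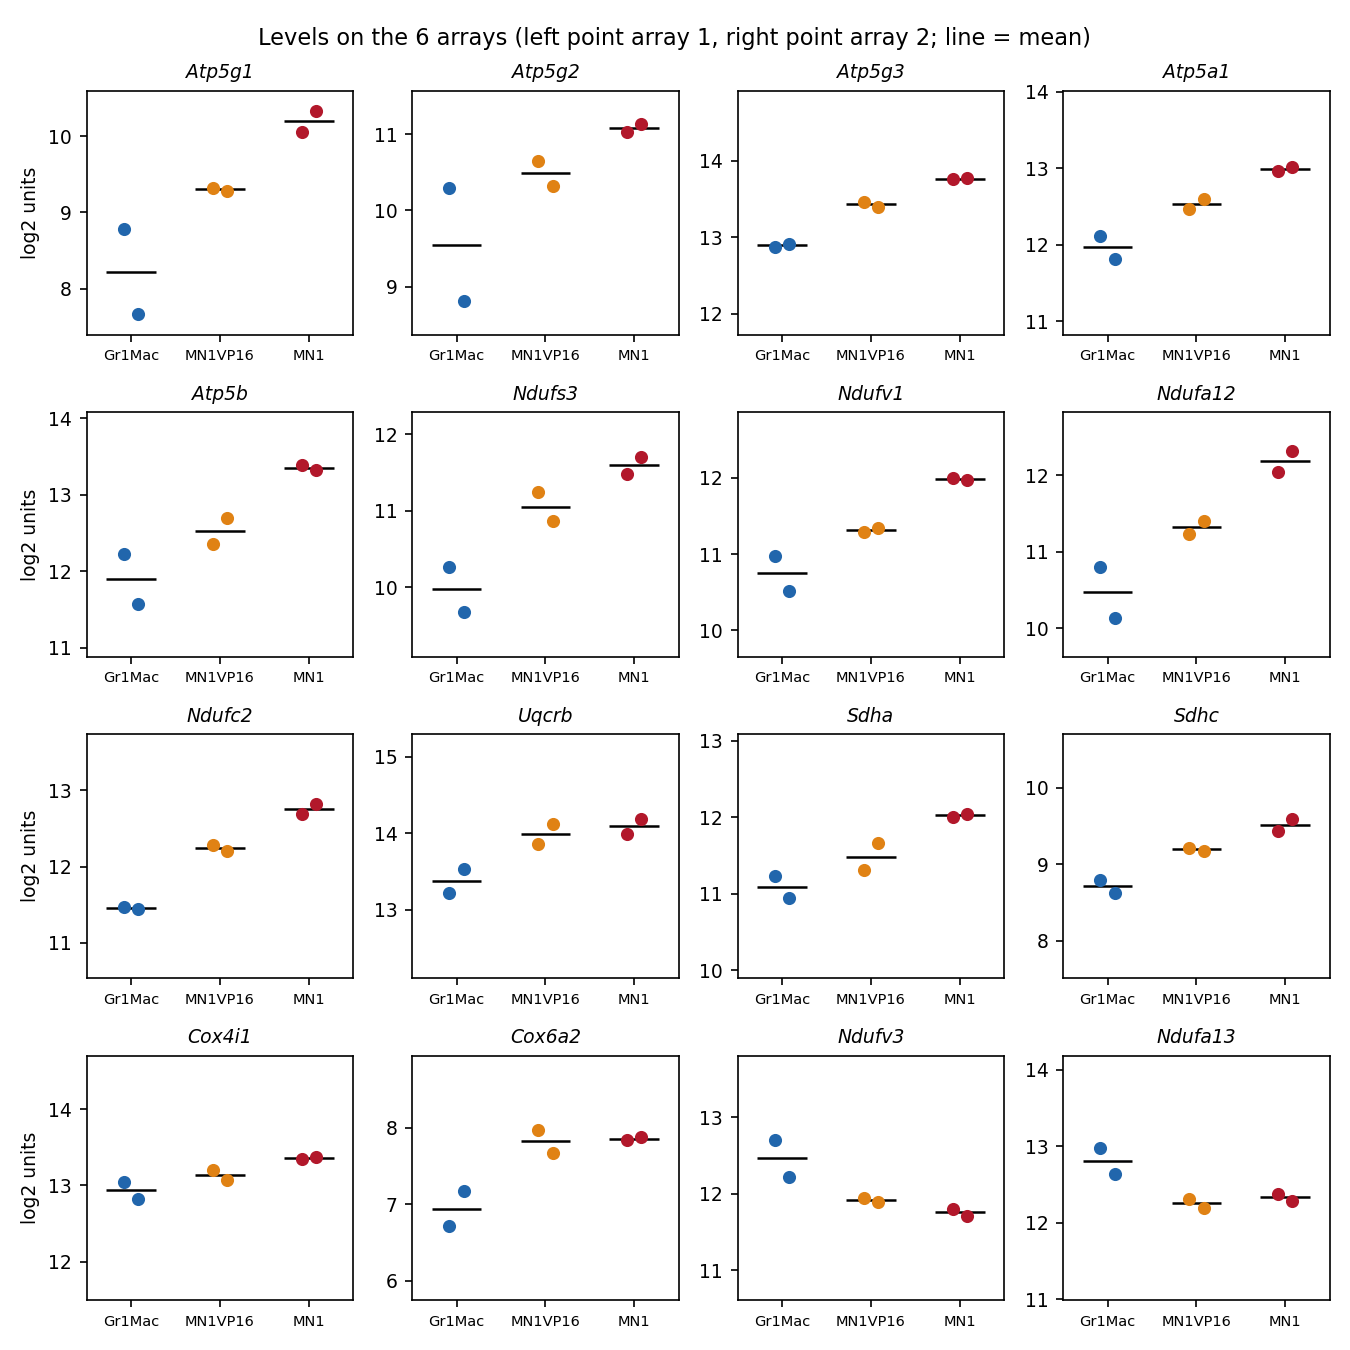
Log2 expression levels (y axis) of 16 members on the 6 arrays, 1 panel per gene with its own axis range, with points for arrays and lines for group means. The order MN1 above MN1VP16 above Gr1Mac is seen in Atp5g1, Atp5b and Ndufs3, and the reverse order in Ndufv3.

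Complex II, succinate dehydrogenase, belongs both to the respiratory chain and to the tricarboxylic acid cycle. Of its 4 genes, 1 catalytic and 1 membrane subunit were higher in MN1 (50%, against 27.7% of the brighter genes), and the median difference was 0.50. Sdha, the flavoprotein that oxidises succinate, read 12.01 and 12.04 on the MN1 arrays, 11.30 and 11.66 on the MN1VP16 arrays, and 11.23 and 10.94 on the Gr1Mac arrays. Its difference between MN1 and Gr1Mac was 0.94 ± 0.20 (limma adjusted p = 0.0157). A second bright probe set of Sdha gave 0.70 without a call (limma adjusted p = 0.109 over probe sets), and the call was lost with its probe sets averaged. Sdhc, a membrane anchor, read 9.44 and 9.59, 9.22 and 9.17, and 8.80 and 8.62, a difference of 0.80 ± 0.16 (limma adjusted p = 0.0134). Its other bright probe set gave 0.29 (limma adjusted p = 0.358), so the probe sets of Sdhc disagree in size. The partners of these subunits were not called. Sdhb, the iron-sulphur subunit, read 11.53 and 11.62 in MN1 and 11.82 and 11.20 in Gr1Mac, which overlap, with a difference of 0.07 (95% interval -0.65 to 0.78). Sdhd, the other anchor, read 11.00 and 11.06 in MN1 and 10.88 and 10.77 in Gr1Mac, a difference of 0.20 (95% interval -0.18 to 0.58). Whether the 4 genes differ from each other was not tested.

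Complex III, the cytochrome bc1 complex, had 3 of 8 members higher (37.5%, against 27.7% of the brighter genes) and the largest median among the complexes, 0.67. Uqcr11, a small subunit, read 11.61 and 11.75 on the MN1 arrays, 11.13 and 10.80 on the MN1VP16 arrays, and 10.94 and 10.13 on the Gr1Mac arrays. MN1 was above all other arrays, by 1.15 ± 0.29 against Gr1Mac (limma adjusted p = 0.0311). Uqcrc2, a core protein, read 11.68 and 11.77, 11.20 and 11.36, and 10.92 and 11.00, a difference of 0.77 ± 0.15 (limma adjusted p = 0.0138). Uqcrb, which lies near the ubiquinone site, read 13.99 and 14.19, 13.85 and 14.12, and 13.21 and 13.53, so that MN1 and MN1VP16 overlapped and both lay above Gr1Mac. Its difference between MN1 and Gr1Mac was 0.72 ± 0.19 (limma adjusted p = 0.0372), and a second bright probe set gave 0.79 without a call (limma adjusted p = 0.0564 over probe sets). Uqcrc1 and the Rieske protein gene Uqcrfs1 were not called, with differences of 0.78 and 0.62, and Uqcr10 was the only member of the complex below 0, at -0.12.

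Complex IV, cytochrome c oxidase, differed least, with 2 of 17 members higher (11.8%, under the 17.3% of all genes) and a median of 0.14. Of its 9 widespread subunits, 1 was called. Cox6c read 12.18 and 12.15 on the MN1 arrays, 11.93 and 11.75 on the MN1VP16 arrays, and 11.26 and 11.58 on the Gr1Mac arrays, a difference of 0.74 ± 0.18 (limma adjusted p = 0.0254), and its other bright probe set gave 0.35 (limma adjusted p = 0.153). Cox4i1, the widespread form of the subunit that responds to the ATP level, read 13.35 and 13.38, 13.20 and 13.07, and 13.05 and 12.82. Its arrays lay in the same order without overlap, with a difference of 0.43 that was not called (limma adjusted p = 0.105). Cox6a1, Cox6b1, Cox5b and Cox7a2 differed by -0.03, 0.01, 0.08 and 0.18, and Cox8a by -0.31.

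The tissue isoforms of complex IV were mostly dim. Cox6a2, the isoform of heart and skeletal muscle, was the exception among them that passed the test. It read 7.84 and 7.88 on the MN1 arrays, 7.97 and 7.67 on the MN1VP16 arrays, and 6.72 and 7.17 on the Gr1Mac arrays. MN1 and MN1VP16 overlapped and both lay above Gr1Mac, and the difference between MN1 and Gr1Mac was 0.92 ± 0.21 (limma adjusted p = 0.0225). Cox6b2, known from testis, read 7.61 and 7.88 on the MN1 arrays, 7.34 and 5.76 on the MN1VP16 arrays, and 6.85 and 5.78 on the Gr1Mac arrays. Its arrays were far apart within MN1VP16 and within Gr1Mac, and the difference of 1.43 ± 0.57 was not called (limma adjusted p = 0.119). Cox8c read between 7.09 and 7.97 on all arrays with its lowest and highest values both in Gr1Mac.

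Complex V, the ATP synthase, had 4 of 17 members higher (23.5%, near the 27.7% of the brighter genes) and a median of 0.51. The calls lay in the catalytic head and the c ring. Atp5b encodes the catalytic beta subunit and read 13.39 and 13.32 on the MN1 arrays, 12.35 and 12.70 on the MN1VP16 arrays, and 12.22 and 11.57 on the Gr1Mac arrays. It was higher in MN1 than in Gr1Mac by 1.46 ± 0.26 (limma adjusted p = 0.00915). Atp5a1, the alpha subunit that alternates with it in the head, read 12.97 and 13.02, 12.46 and 12.60, and 12.11 and 11.82, a difference of 1.03 ± 0.17 (limma adjusted p = 0.00759). The gamma, delta and epsilon subunits of the central stalk, Atp5c1, Atp5d and Atp5e, differed by 0.34, 0.51 and 0.06 and were not called.

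The c ring is the rotor through which protons pass, and 3 genes, Atp5g1, Atp5g2 and Atp5g3, encode the same mature c subunit with different import sequences. All 3 had a positive difference, with a median of 1.53, and 2 of them were called. Atp5g1 read 10.06 and 10.33 on the MN1 arrays, 9.32 and 9.28 on the MN1VP16 arrays, and 8.78 and 7.67 on the Gr1Mac arrays. The Gr1Mac arrays were over 1 log2 unit apart, yet both lay below MN1VP16, and MN1 was above Gr1Mac by 1.97 ± 0.36, the largest difference among the members (3.91-fold, limma adjusted p = 0.0100). Atp5g3 read 13.76 and 13.77, 13.46 and 13.40, and 12.87 and 12.91, with close arrays in each group, and differed by 0.87 ± 0.14 (limma adjusted p = 0.00736). Atp5g2 read 11.03 and 11.13, 10.64 and 10.33, and 10.30 and 8.81, and its difference of 1.53 ± 0.46 missed the call (limma adjusted p = 0.0538) with a wide gap between the Gr1Mac arrays. None of the 4 peripheral stalk genes or the 5 other membrane subunits was called, with median differences of 0.14 and 0.25. In the stalk gene Atp5o, however, a second bright probe set gave 1.39 (limma adjusted p = 0.0123 over probe sets), against 0.72 for the one used, so its probe sets disagree on the call. The same held for Ndufb5 of complex I, at 1.13 (limma adjusted p = 0.00731 over probe sets) against 0.79.

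In the second comparison, MN1VP16 minus Gr1Mac, only the complex I gene Ndufc2 passed the test, being higher by 0.78 ± 0.15 (1.72-fold, limma adjusted p = 0.0422). Thus 1 of 81 members was called higher and 0 lower by limma, against 3.66% and 2.11% of all genes. By unadjusted limma p under 0.05, 14 members were higher and 3 lower. Such a p was found for 2444 and 1869 of all 18193 genes, and for 2047 and 1460 of the 9096 brighter genes. The call of Ndufc2 was lost with any 1 of the 6 arrays left out, where its difference ran from 0.74 to 0.83. The call rested on a probe set that can read several transcripts, and its other bright probe sets gave 0.76 and 0.40 for Ndufc2 without a call (limma adjusted p = 0.135 and 0.355 over probe sets). Next to it were Ndufa9 (0.79, limma adjusted p = 0.0548), Ndufs3 (1.08, 0.0661), Ndufa5 (0.81, 0.0672) and Cox6a2 (0.88, 0.069). The median member difference was 0.17, against -0.00 over all genes, and both MN1VP16 arrays lay above both Gr1Mac arrays for 29 members (35.8%; background 24.8%, and 33.6% among the brighter genes) and below for 10 (12.3%; background 25.2%, and 27.7%). The share above was thus near that of other bright genes. Without Gr1Mac replicate 2 the median member difference was 0.0031, against 0.02 over all genes, and without MN1VP16 replicate 1 it was 0.11. It was 0.09 with the arrays centred on their brighter genes and 0.08 without probe sets that can read several transcripts. The medians by complex were 0.16, 0.30, 0.31, 0.03 and 0.17 for complexes I to V, each under its counterpart in MN1 minus Gr1Mac, with which this comparison shares the Gr1Mac arrays.

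The constructs were then set against each other. In MN1VP16 minus MN1, limma called 0 members higher and 0 lower, against 1.15% and 2.70% of all genes. By unadjusted limma p under 0.05, 1 member was higher and 14 lower. Such a p was found for 1664 and 2427 of all 18193 genes, and for 1309 and 1821 of the 9096 brighter genes. The single member upward was Ndufb1, at 0.96 ± 0.25 (limma adjusted p = 0.0980). Among members downward Ndufs1 had the smallest p, at -0.74 (limma adjusted p = 0.0891). The median difference was -0.24, against 0.03 over all genes, and it was negative in each complex, from -0.12 in complex IV to -0.34 in complex V. Both MN1VP16 arrays were below both MN1 arrays for 51 members (63.0%; background 29.2%, and 42.4% among the brighter genes) and above for 5 (6.17%; background 30.5%, and 28.2%). The median was -0.12 with the arrays centred on their brighter genes. With the Xist and Y-linked split as a block, this median was 0.05, so the direction does not hold under that fit, where MN1 and MN1VP16 are compared only through Gr1Mac. For Atp5g1 and Atp5b, the members with large differences from Gr1Mac, MN1VP16 minus MN1 was -0.89 and -0.83, with limma adjusted p of 0.217 and 0.131, and for Ndufa12 it was -0.86 (0.120). These genes were therefore not shown to differ between the constructs.

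The order of the 3 groups was read next. All arrays of MN1 were above all of MN1VP16, and those above all of Gr1Mac, in 23 of 81 members (28.4%). That held for 14.1% of all genes and 23.2% of the brighter genes, so the members' share was near that of other bright genes. The reverse order was seen in Ndufv3 alone among the members, and in 1899 of all 18193 genes. By group means, 45 of 81 members (55.6%) had MN1 above MN1VP16 above Gr1Mac, against 27.7% of all genes and 39.9% of the brighter genes. The 23 were spread over all 5 complexes and included Sdha and Sdhc of complex II, Uqcrc2 and Uqcrfs1 of complex III, Cox4i1, Cox5a and Cox6c of complex IV, and the 3 c-ring genes with Atp5a1 and Atp5b of complex V. Since MN1VP16 minus MN1 called none of them, MN1 and MN1VP16 are neighbours in this order that did not differ beyond the test's threshold. By list medians, erythroid and stem cell markers fell in the same order of arrays. Neutrophil markers fell in the reverse order of groups, though MN1 replicate 1 (12.95) lay above MN1VP16 replicate 2 (12.67). Monocyte markers (MN1 8.22 and 7.90, MN1VP16 10.88 and 10.32, Gr1Mac 10.92 and 10.10) followed neither order of arrays. Nor did B cell markers, highest in MN1VP16, or T and NK cell, megakaryocyte and mast cell markers.

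Other genes of the respiratory system were read from lists by function. For scale, 27.7% of the brighter genes were called higher and 19.5% lower in MN1 minus Gr1Mac. In MN1VP16 minus Gr1Mac these shares were 6.50% and 3.30%, and in MN1VP16 minus MN1 1.98% and 3.41%. Of 9 subunits and carriers whose symbols lie outside the rule, 7 were higher in MN1 than in Gr1Mac, with a median of 1.30. They included Atpif1, the inhibitor of ATP synthase reversal (2.57), Ndufab1, the acyl carrier subunit of complex I (1.51), Cycs, cytochrome c (1.32), the mitochondrially encoded ND5 (1.31) and Cyc1 of complex III (1.08). In MN1VP16 minus Gr1Mac 4 of the 9 were higher, and Atpif1 was lower in MN1VP16 than in MN1 (-1.32). Of 46 assembly factors, 21 were higher in MN1 than in Gr1Mac and 1, Pet100, was lower (-1.03), with a median of 0.64. Ndufaf4, a complex I assembly factor, was higher by 3.09 ± 0.25, and Lrpprc, which stabilises mitochondrial mRNA, by 2.41 ± 0.34. In MN1VP16 minus Gr1Mac, Ndufaf4 and Ndufaf2 were higher (1.92 and 1.53), and in MN1VP16 minus MN1 Cox17, Tmem70 and Cox11 were lower (Tmem70 by -0.99 and Cox11 by -0.98).

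Lists of mitochondrial ribosomal, import and tricarboxylic acid cycle genes had larger medians than the subunits. Of 76 mitochondrial ribosomal protein genes, 37 were higher in MN1 than in Gr1Mac (48.7%, against 27.7% of the brighter genes) and 1 lower, with a median of 0.87. Of 33 genes of import and membrane organisation, 24 were higher and 0 lower by limma, with a median of 1.23, led by the chaperone genes Hspa9 (3.74) and Hspe1 (3.47), which were also higher in MN1VP16 than in Gr1Mac (2.64 and 2.19). Of 18 tricarboxylic acid cycle genes, 12 were higher, with a median of 0.89, led by Suclg2 (3.38) and Idh2 (2.69). Of 12 genes of coenzyme Q synthesis, 6 were higher, led by Coq3 (2.22) and Coq7 (1.85). Prdx3 and Txnrd2, which remove peroxide in mitochondria, were higher by 3.35 and 2.45, within a list of uncoupling and electron leak genes in which 5 of 11 were higher and Ucp3 lower (-0.67). Glycolysis genes moved both ways, with 5 of 19 higher (26.3%) and 8 lower (42.1%) and a median of -0.51. The share higher was near that of the brighter genes. The lactate transporter gene Slc16a1 (5.29) and Pfkm (2.96) were higher, and Hk3 (-2.45) and Ldhb (-2.25) lower.

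**Figure D4:**
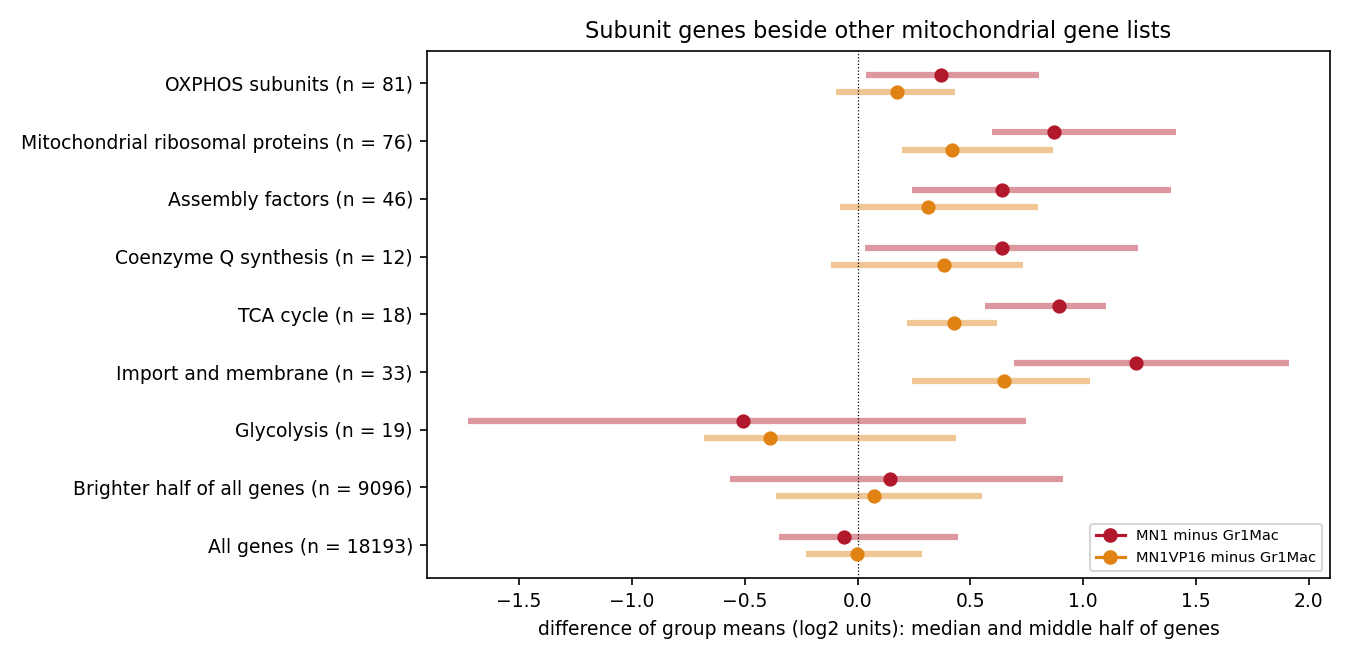
Differences of group means in log2 units for the 81 members, lists of related genes, all genes and the genes brighter than the median gene, with points at the median and bars from the lower to the upper quartile, in red for MN1 minus Gr1Mac and orange for MN1VP16 minus Gr1Mac. In MN1 minus Gr1Mac the members' median of 0.37 lies below those of mitochondrial ribosomal proteins (0.87) and import genes (1.23), and above that of glycolysis genes (-0.51).

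Of 24 regulators of mitochondrial gene expression, 8 (33.3%) were higher and 4 (16.7%) lower in MN1 than in Gr1Mac, shares near those of the brighter genes (27.7% and 19.5%). Their median difference was 0.15. Myc, a driver of growth and of mitochondrial biogenesis, read 11.17 and 10.91 on the MN1 arrays, 9.22 and 8.86 on the MN1VP16 arrays, and 7.07 and 6.23 on the Gr1Mac arrays. It was higher in MN1 and in MN1VP16 than in Gr1Mac (4.39 and 2.39) and lower in MN1VP16 than in MN1 (-2.00). Pprc1, a coactivator of NRF1, was higher than in Gr1Mac by 3.08 in MN1 and 1.62 in MN1VP16. Nrf1 itself read 7.80 and 7.91, 7.98 and 8.10, and 8.48 and 8.34 in the order MN1, MN1VP16, Gr1Mac, and was lower in MN1 than in Gr1Mac (-0.56), as were Max (-1.81), Nfe2l2 (-0.77) and Mterf4 (-0.65). Gabpa lay between 9.54 and 9.95 on all arrays, and Ppargc1a at or under 4.18.

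Marker lists were read beside these results. In MN1 minus Gr1Mac, 27.7% of the brighter genes were called higher and 19.5% lower. These shares were 6.50% and 3.30% in MN1VP16 minus Gr1Mac, and 1.98% and 3.41% in MN1VP16 minus MN1. In MN1 minus Gr1Mac, 10 of 12 erythroid markers and 9 of 12 stem and progenitor markers were higher, among them Car1 (8.58) and Hoxa9 (7.95), and 9 of 13 neutrophil and 7 of 10 monocyte markers were lower, among them Il1b (-3.84) and Klf4 (-4.86). In MN1VP16 minus Gr1Mac, 6 of 12 erythroid, 5 of 12 stem and progenitor, 2 of 9 B cell and 1 of 10 monocyte markers were higher, and 1 of 13 neutrophil markers was lower. In MN1VP16 minus MN1, 8 of 12 erythroid and 2 of 12 stem markers were lower, and 4 of 10 monocyte, 1 of 13 neutrophil and 1 of 9 B cell markers were higher. The B cell differences were positive for 8 of 9 markers in MN1VP16 minus Gr1Mac and for 9 of 9 in MN1VP16 minus MN1. Erythroid markers with a group mean at or under the background guide numbered 5 of 12 in Gr1Mac and 1 each in MN1 and MN1VP16, and stem markers 7 of 12 in Gr1Mac and 1 each in the others. The part of these cell types in the levels of the subunits was not tested.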

How the data were processed

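RNA of 6 samples was measured on Affymetrix Mouse430_2 arrays. Per the submitters' processing notes, the authors ran RMA, whose version is not given in the sources used here, and deposited its log2 values for each probe set. The method equalises the distributions of the arrays, so a change in total RNA cannot be seen, and dim differences are compressed. Array medians lay between 5.36 and 5.43. For arrays, their number limits the precision.

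GEO's platform annotation named 1 gene for 34945 of 45037 probe sets, and those with several genes (932) or none (9160) were left out. RefSeq matched 34741 probe sets and changed 0 symbols. The 81 members had 164 probe sets, and 48 members had more than 1. Probe sets ending in _s_at, _a_at or _x_at can read several transcripts, and subunit genes have many processed pseudogenes.

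Differences came from limma 3.58.1 in R 4.3.3 (lmFit, eBayes; 3 residual and 3.03 prior degrees of freedom) on all 6 arrays with group as the only term, adjusted by Benjamini-Hochberg over 18193 genes. Folds are 2 to the power of a difference. Whether the 2 arrays of a group stand for different mice is not said, so the spread behind the p-values may be technical. The test was tried on simulated data.

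The members and lists were chosen with earlier results of these data known, and the subunit classes after values were seen. Genes named by rule were, per comparison and complex, up to 3 largest called rises and falls, all Sdh and Atp5g genes, complex IV isoforms with their widespread counterparts, and up to 2 called rises and falls of each list. Others were named after their values were seen. B cell, T and NK cell, megakaryocyte and mast cell markers had 1, 0, 4 and 3 members called higher in MN1 than in Gr1Mac, and 2, 1, 0 and 0 called lower. Alternatives covered arrays, blocks, probe sets, scaling, variance model and call.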

Additional observations from a re-analysis of the deposited data

How the results depend on the processing

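Members called higher and lower in MN1 minus Gr1Mac numbered 22 and 1, in MN1VP16 minus Gr1Mac 1 and 0, and in MN1VP16 minus MN1 0 and 0. With each array left out in turn, the first pair ran from 6 to 28 and 0 to 2, and MN1VP16 minus Gr1Mac called 0 to 6 higher. With the arrays of only the 2 groups compared, 0 members were lower in MN1 than in Gr1Mac and 0 higher in MN1VP16 than in Gr1Mac. Without _x_at, _s_at and _a_at probe sets the counts were 14 and 0 in MN1 minus Gr1Mac and 0 higher in MN1VP16 minus Gr1Mac, and Ndufa12 turned to -0.66, read by its dim probe set. Centring on the brighter genes gave 15 and 4 in MN1 minus Gr1Mac and 1 higher in MN1VP16 minus MN1; a further quantile normalisation gave 29 and 1, 4 higher in MN1VP16 minus Gr1Mac and 1 higher in MN1VP16 minus MN1. With the Xist and Y-linked split as a block they were 17 and 2, with 6 higher in MN1VP16 minus Gr1Mac and a median difference of 0.055 in MN1VP16 minus MN1; with the control feature split, 0 and 0, and 0 higher in MN1VP16 minus Gr1Mac. A difference of at least 1 log2 unit left 13 and 0, and 0 in MN1VP16 minus Gr1Mac. Among all genes, 17.3% were called higher in MN1 minus Gr1Mac in the main fit. That share was 15.6% without _x_at, _s_at and _a_at probe sets, 14.3% centred and 16.6% quantile normalised again. With the control feature split it was 5.02%, and with the Xist and Y-linked split 12.8%. In MN1VP16 minus Gr1Mac the Xist and Y-linked split gave 1018 of all 18193 genes higher. A difference of at least 1 log2 unit left 2428 of all genes higher and 1551 lower in MN1 minus Gr1Mac. The cause of these changes was not tested. With 1 array left out, the members' median ran from 0.28 to 0.56 in MN1 minus Gr1Mac, from 0.0031 to 0.26 in MN1VP16 minus Gr1Mac and from -0.32 to -0.17 in MN1VP16 minus MN1. Centred, these medians were 0.17, 0.09 and -0.12, and without _x_at, _s_at and _a_at probe sets 0.16, 0.08 and -0.18.

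Replicate numbers did not pair the arrays: same-numbered arrays had correlations of deviations of -0.05, -0.05 and 0.08. With the replicate block, 21 members were higher and 2 lower in MN1 minus Gr1Mac, and 0 higher in MN1VP16 minus Gr1Mac. Signal over background limits the 5 members at or under the guide, whose differences are not informative.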
